A study of Mus musculus with 6 samples.

Results

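The 10 genes described here are *Lrat*, *Reln*, *Dcn*, *Col1a1*, *Col1a2*, *Col3a1*, *Des*, *Acta2*, *Timp1* and *Hgf*, which are commonly used to follow hepatic stellate cells and fibrosis in liver. They were taken by symbol, out of 35540 genes with a symbol, and all 10 were found. The livers of 3 mice of the genotype *Surf4* fl/fl *Alb-Cre*+ were compared by RNA sequencing with those of 3 littermate controls, *Surf4* fl/fl *Alb-Cre*-, all on a C57BL/6J background and with 1 library per mouse. All 6 mice carried both floxed *Surf4* alleles, and they differed by a Cre recombinase under the *Albumin* promoter, which is active in hepatocytes. *Surf4* was not measured by cell type. Replicates 1 and 3 of each genotype were male and replicate 2 was female. The labels name no treatment or diet difference between the groups, and the age of these mice is not given in the sources used here. Values are TPM, transcript abundances that are corrected for transcript length and add up to 1000000 in each mouse, so that levels can be set side by side between genes. The number of reads behind a value is unknown, and no counting error can be given.

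None of the 10 genes passed the test between *Alb-Cre*+ and control livers (0 of 10, against 0 of 14189 genes tested, 0%, with limma at an adjusted p of 0.01). The values were higher in *Alb-Cre*+ mice for *Lrat*, *Reln*, *Dcn*, *Timp1* and *Hgf* and lower for *Col1a1*, *Col1a2*, *Col3a1*, *Des* and *Acta2*, that is 5 of 10 above 0 and 5 of 10 below it, beside 49.6% and 50.4% of all genes tested. Their median log2 fold change was -0.012, and that of all genes was -0.0017. At an unadjusted p under 0.05, 0 of the 10 genes were found in either direction, while 0.803% of all genes were higher and 0.958% were lower in *Alb-Cre*+ mice. With same-numbered mice paired as blocks the count of members was again 0, beside 2.28% of genes higher and 2.42% lower. The SE of each member was smaller with these blocks. It was 0.15 against 0.57 for *Hgf*, 0.14 against 0.42 for *Dcn* and 0.26 against 0.30 for *Col1a1*. The lowest unadjusted p of a member in the limma fit with blocks was 0.0722, for *Col3a1*. The SE and confidence intervals given for single genes are from the fit without blocks. The values also varied from mouse to mouse within a genotype: *Alb-Cre*- replicate 3 had the lowest value of all 6 mice for 5 of the 10 genes, beside 21.2% of all genes tested, and both female mice were above all 4 male mice for 5 of the 10, beside 36.6% of all genes. Without *Alb-Cre*- replicate 3, none of the 10 genes was higher and all 10 were lower in *Alb-Cre*+ mice, where 40.6% of all genes were higher, and still no gene of the 10 passed the test. Without *Alb-Cre*+ replicate 3, 6 were higher and 4 lower, where 70.2% of all genes were higher.

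Hepatic stellate cells lie between hepatocytes and the sinusoidal endothelium, where they store vitamin A as retinyl ester. After injury they lose these stores, become contractile myofibroblasts and lay down fibrillar collagen, the process that underlies liver fibrosis. In healthy liver they are also a source of growth factors and matrix components. SURF4 is a cargo receptor that carries secreted proteins out of the endoplasmic reticulum, and collagens, proteoglycans, reelin and HGF are all secreted proteins.

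*Surf4* itself was at 59.0, 71.8 and 54.3 TPM in *Alb-Cre*+ replicates 1, 2 and 3, and at 92.5, 94.5 and 92.5 TPM in the controls. The groups did not overlap (61.7 ± 9.07 against 93.2 ± 1.17 TPM, SD, n = 3 each; log2 fold change -0.60 ± 0.13 SE, unadjusted p = 0.00269, adjusted p = 1.00). The gene value covers all exons, whereas only exon 2 is removed by Cre. Between 10059 and 11125 genes reached 1 TPM in a mouse, and 4 Y-linked genes (*Uty*, *Kdm5d*, *Ddx3y*, *Eif2s3y*) followed the sex labels in all 6 mice. All 25 genes of a list of quiescent stellate cell markers passed the minimum mean of 0.1 TPM, with a summed level of 289 to 990 TPM per mouse. The highest sum, in *Alb-Cre*+ replicate 2, held 405 TPM of *Steap4* alone, which was at 10.8 to 46.2 TPM in the other mice. *Gfap* was the lowest of the markers usually cited, at 0.0599 to 0.169 TPM. Of 22 genes for activated stellate cells and myofibroblasts, 18 passed the minimum. *Fap*, a protease of activated fibroblasts, was below it at 0.0129 to 0.0314 TPM.

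*Dcn*, which encodes the collagen-binding proteoglycan decorin, had by far the highest level of the 10 genes, with a mean over the 6 mice of 131 TPM and a range of 65.7 to 191 TPM that overlapped that of no other member. It ranked at the 94.4th percentile of the genes tested. *Reln* and *Hgf* followed with means of 5.45 and 5.41 TPM, then *Col3a1* (3.18 TPM), *Col1a2* (3.04 TPM), *Lrat* (2.07 TPM), *Des* (1.65 TPM), *Acta2* (0.978 TPM) and *Col1a1* (0.748 TPM). From *Reln* down to *Col1a1*, the range of each gene over the mice overlapped that of the next in this order. *Timp1* was last, between 0 and 0.496 TPM, and did not overlap with *Col1a1*.

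**Figure D1:**
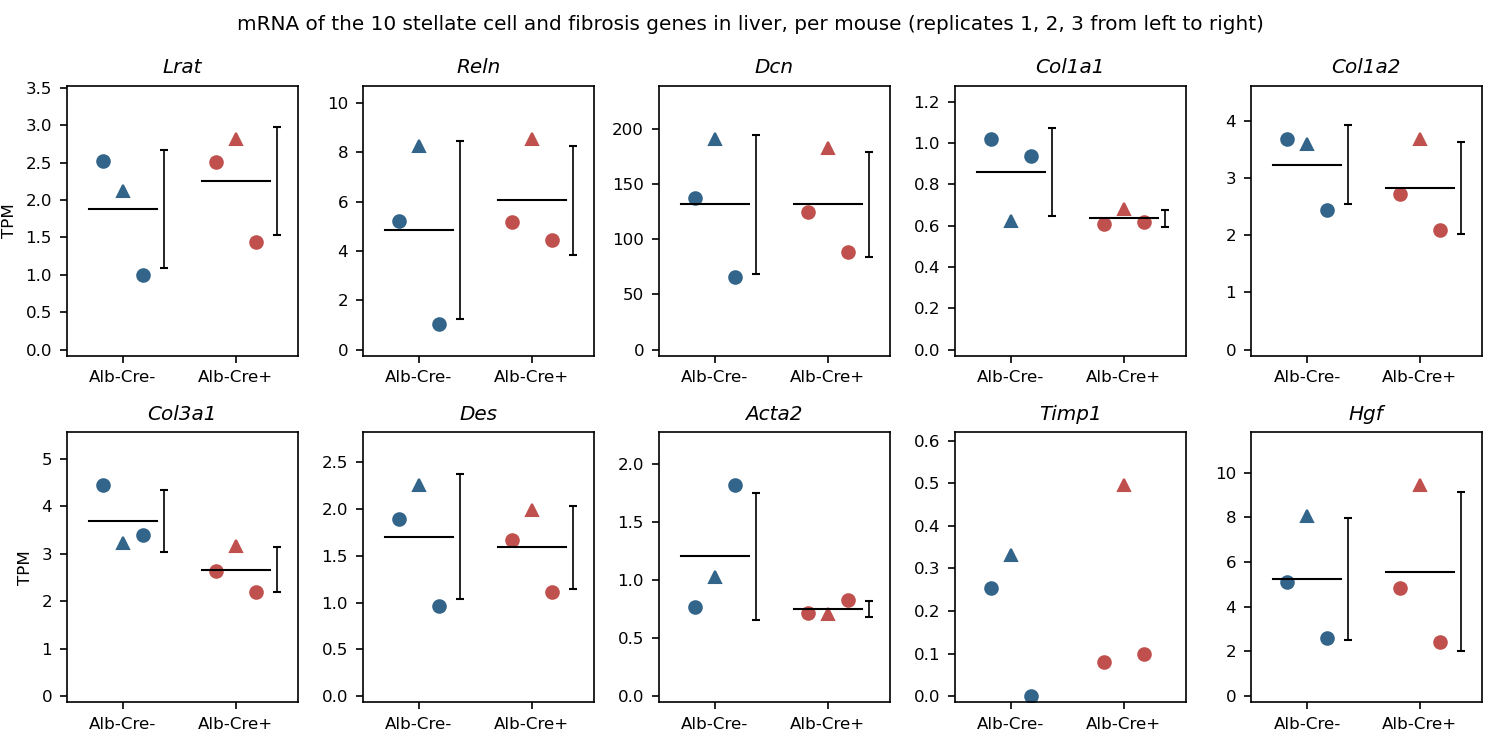
TPM of the 10 genes in each liver, by genotype (blue, *Alb-Cre*-; red, *Alb-Cre*+). Circles are male and triangles female mice, horizontal lines are means and vertical bars are SD (n = 3), both left out for *Timp1*, which was listed at 0 in a mouse. The genotypes overlap for every gene except *Col3a1*, whose 3 *Alb-Cre*+ values (2.20 to 3.16 TPM) lie below the 3 control values (3.22 to 4.44 TPM).

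Among the genes of quiescent stellate cells, *Lrat* encodes the enzyme that esterifies retinol for storage (GRCm38 chr3:82892579-82903973, minus strand). *Lrat* was at 2.50, 2.82 and 1.44 TPM in *Alb-Cre*+ replicates 1, 2 and 3 and at 2.53, 2.11 and 1.00 TPM in the controls. The groups overlapped, and the third replicate was the lowest of each genotype (log2 fold change 0.29 ± 0.42 SE, 95% confidence interval -0.69 to 1.27, unadjusted p = 0.510, adjusted p = 1.00). The log2 fold change was -0.088 without *Alb-Cre*- replicate 3 and 0.57 without *Alb-Cre*+ replicate 3.

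*Reln* encodes reelin, a large extracellular glycoprotein known from neuronal migration, which in liver is made by stellate cells (chr5:21884454-22344702, minus strand). *Reln* was at 5.16, 8.56 and 4.43 TPM in *Alb-Cre*+ mice and at 5.22, 8.25 and 1.05 TPM in controls. Replicates 1 and 2 differed little between the genotypes (log2 differences of -0.016 and 0.053), and the low value of *Alb-Cre*- replicate 3 set the third pair apart, at 1.98. The log2 fold change of 0.67 ± 0.70 SE (95% confidence interval -0.99 to 2.33, unadjusted p = 0.372) was the largest upward value of the 10, and it was -0.17 without *Alb-Cre*- replicate 3 and 1.26 without *Alb-Cre*- replicate 2.

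*Dcn* (chr10:97479609-97518143, plus strand) was at 125, 182 and 87.9 TPM in *Alb-Cre*+ mice and at 137, 191 and 65.7 TPM in controls. Both genotypes had the same order of replicates, with replicate 2 highest and replicate 3 lowest, and nearly the same mean (132 ± 47.6 against 131 ± 62.8 TPM, SD, n = 3 each; log2 fold change 0.071 ± 0.42 SE, 95% confidence interval -0.93 to 1.07). *Des* encodes desmin, an intermediate filament protein of stellate and muscle cells (chr1:75360329-75368579, plus strand), and was at 1.67, 1.99 and 1.11 TPM against 1.89, 2.25 and 0.961 TPM. The replicates followed the order seen for *Dcn*, and the log2 fold change was -0.050 ± 0.39 SE (95% confidence interval -0.96 to 0.86). Without *Alb-Cre*- replicate 3 the log2 fold change of *Dcn* was -0.36 and that of *Des* was -0.39; that of *Dcn* was -0.20 without *Alb-Cre*+ replicate 2 and 0.41 without *Alb-Cre*- replicate 2. The log2 fold change of *Des* was instead 0.17, 0.061 or 0.18 without *Alb-Cre*+ replicate 3, *Alb-Cre*- replicate 1 or *Alb-Cre*- replicate 2.

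*Hgf* encodes hepatocyte growth factor, the ligand of the receptor MET on hepatocytes (chr5:16553495-16620152, plus strand). *Hgf* was at 4.86, 9.44 and 2.43 TPM in *Alb-Cre*+ mice and at 5.09, 8.04 and 2.58 TPM in controls. Same-numbered mice were close, with log2 differences of -0.065, 0.23 and -0.085, whereas the 6 values spread from 2.43 to 9.44 TPM. The log2 fold change was 0.026 ± 0.57 SE (95% confidence interval -1.31 to 1.37, unadjusted p = 0.965). It was -0.45 without *Alb-Cre*+ replicate 2 and -0.40 without *Alb-Cre*- replicate 3, but 0.51 without *Alb-Cre*+ replicate 3 and 0.40 without *Alb-Cre*- replicate 2. A genotype without its replicate 2 had no female mouse, so the groups of those fits differed in sex. In the male mice alone the log2 fold change of *Hgf* was -0.075.

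Promoter sequence is shown for *Lrat*, *Reln*, *Des* and *Timp1*, which had their lowest value in the same mouse, *Alb-Cre*- replicate 3, as the 250 bases before the RefSeq start of the gene (GRCm38.p6, read 5′ to 3′ on the strand of the gene). Capitals mark matches, on either strand, to the TATA box TATAAA, the CCAAT box CCAAT, the GC box GGGCGG, the AP-1 site TGAGTCA or the CArG box; no matches overlapped. The windows lie at chr3:82903975-82904224 (*Lrat*), chr5:22344706-22344955 (*Reln*), chr1:75360042-75360291 (*Des*) and chrX:20869916-20870165 (*Timp1*).
Lrat: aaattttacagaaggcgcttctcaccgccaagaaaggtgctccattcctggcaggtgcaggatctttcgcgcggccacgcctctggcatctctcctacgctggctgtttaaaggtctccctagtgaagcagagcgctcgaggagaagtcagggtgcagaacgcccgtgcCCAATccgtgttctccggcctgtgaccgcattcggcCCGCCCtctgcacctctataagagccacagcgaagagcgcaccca
Reln: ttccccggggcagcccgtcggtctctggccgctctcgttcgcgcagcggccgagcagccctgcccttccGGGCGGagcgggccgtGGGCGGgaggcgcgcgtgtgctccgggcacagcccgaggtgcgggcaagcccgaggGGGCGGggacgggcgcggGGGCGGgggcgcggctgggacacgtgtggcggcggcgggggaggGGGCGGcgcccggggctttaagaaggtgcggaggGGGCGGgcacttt
Des: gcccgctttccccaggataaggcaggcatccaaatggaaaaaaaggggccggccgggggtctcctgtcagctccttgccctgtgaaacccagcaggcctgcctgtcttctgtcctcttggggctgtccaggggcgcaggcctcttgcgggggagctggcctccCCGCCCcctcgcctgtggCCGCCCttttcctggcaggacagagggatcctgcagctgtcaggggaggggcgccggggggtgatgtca
Timp1: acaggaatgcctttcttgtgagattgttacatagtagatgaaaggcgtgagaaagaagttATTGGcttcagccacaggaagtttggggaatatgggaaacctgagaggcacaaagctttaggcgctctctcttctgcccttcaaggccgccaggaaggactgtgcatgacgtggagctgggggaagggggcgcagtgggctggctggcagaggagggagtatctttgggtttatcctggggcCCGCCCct
The GC box was in all 4 windows, 1 time each in *Lrat* and *Timp1*, 6 times in *Reln* and 2 times in *Des*, and in 32.7% of the 32851 windows of the same length. The CCAAT box was in those of *Lrat* and *Timp1*, and in 33.8% of all windows. *Dcn*, also at its lowest in *Alb-Cre*- replicate 3, had no promoter sequence in the source used. Among members not lowest in that mouse, the window of *Col1a2* also held the GC box and the CCAAT box. Those of *Acta2* and *Hgf* held no match. Whether these motifs have a part in the values was not tested. The GC content was 59.2% for *Lrat*, 80% for *Reln*, 67.2% for *Des* and 54.4% for *Timp1*, and the median of all windows was 52.4%.

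*Col3a1*, *Col1a1* and *Col1a2*, which encode fibrillar collagens, all had lower mean values in *Alb-Cre*+ mice, and none passed the test. *Col3a1*, the gene of type III collagen (chr1:45311538-45349706, plus strand), was at 2.64, 3.16 and 2.20 TPM in *Alb-Cre*+ mice and at 4.44, 3.22 and 3.40 TPM in controls. It was the only member whose genotypes did not overlap, with all *Alb-Cre*+ values below all control values, as for 2.71% of all genes tested; no member was above in this way, against 2.18% of genes. The gap was narrow, because the female mice of the 2 genotypes had 3.16 and 3.22 TPM. The means were 2.67 ± 0.480 and 3.69 ± 0.660 TPM (SD, n = 3 each), and the log2 fold change was -0.45 ± 0.24 SE (95% confidence interval -1.02 to 0.11, unadjusted p = 0.101, adjusted p = 1.00). It kept its sign when each mouse was left out, from -0.58 without *Alb-Cre*+ replicate 2 to -0.32 without *Alb-Cre*- replicate 1. Without *Alb-Cre*+ replicate 2 the unadjusted p of *Col3a1* was 0.0456 (adjusted p = 0.953), in a fit where 2.83% of all genes were lower and 0.777% higher at an unadjusted p under 0.05, the median of all genes was -0.12 and 28% of genes were higher. In the 4 male mice alone it was -0.67 ± 0.23 SE (unadjusted p = 0.0332, adjusted p = 0.999), where 2.47% of all genes were lower and 1.3% higher at an unadjusted p under 0.05, the median of all genes was -0.082 and 35% of genes were higher.

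The window before the start of *Col3a1*, at chr1:45311288-45311537, is shown because this gene was the member with non-overlapping genotypes and, unlike *Lrat*, *Reln*, *Des* and *Timp1*, was not at its lowest in *Alb-Cre*- replicate 3.
Col3a1: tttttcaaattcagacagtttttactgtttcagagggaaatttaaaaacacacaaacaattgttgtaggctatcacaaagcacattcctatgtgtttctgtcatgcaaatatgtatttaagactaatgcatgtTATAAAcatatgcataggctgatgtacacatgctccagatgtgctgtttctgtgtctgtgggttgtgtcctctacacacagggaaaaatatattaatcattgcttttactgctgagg
It had a GC content of 35.2% and no match to the GC box. It held a match to the TATA box sequence, marked in capitals, 117 to 112 bases before the start. Such a match is in 12.4% of all windows, and whether this one acts as a TATA box was not tested.

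*Col1a1* and *Col1a2* encode the 2 chains of type I collagen, the main collagen of scar tissue (chr11:94936224-94953042 and chr6:4504814-4541544, both plus strand). *Col1a1* was at 0.606, 0.683 and 0.618 TPM in *Alb-Cre*+ mice and at 1.02, 0.621 and 0.937 TPM in controls. The male *Alb-Cre*+ mice were below the male controls and the female was above the female control, and the log2 fold change was -0.36 ± 0.30 SE (95% confidence interval -1.06 to 0.35, unadjusted p = 0.268). It was -0.55 without *Alb-Cre*- replicate 2 and -0.23 without *Alb-Cre*- replicate 1. *Col1a2* was at 2.72, 3.69 and 2.09 TPM against 3.68, 3.60 and 2.44 TPM. Its log2 fold change of -0.20 ± 0.29 SE (95% confidence interval -0.89 to 0.49, unadjusted p = 0.515) was again negative in the pairs of males, by -0.42 and -0.22, and near 0 in the females (0.035). For *Col1a2* it was -0.40 without *Alb-Cre*+ replicate 2 and -0.0065 without *Alb-Cre*+ replicate 3. The difference between the sexes in the genotype effect was tested with an interaction term, which passed for 0 of 14189 genes (0%). The term was 0.72 ± 0.41 SE for *Col1a1* (adjusted p = 0.775), 0.64 ± 0.40 for *Col3a1* (adjusted p = 0.782) and 0.35 ± 0.50 for *Col1a2* (adjusted p = 0.877). Each genotype had a single female, so the genotype difference in females was not replicated. The count of 0 therefore cannot show that the genotype effect is alike in both sexes.

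Of the activation markers, *Acta2* encodes smooth muscle alpha-actin, made by myofibroblasts and by vascular smooth muscle (chr19:34241090-34255590, minus strand). *Acta2* was at 0.715, 0.705 and 0.831 TPM in *Alb-Cre*+ mice and at 0.767, 1.03 and 1.82 TPM in controls. The 3 *Alb-Cre*+ mice were close together (0.750 ± 0.0699 TPM, SD, n = 3), and *Alb-Cre*- replicate 3 stood above all others. The log2 fold change was -0.54 ± 0.36 SE (95% confidence interval -1.39 to 0.30, unadjusted p = 0.174), and was -0.22 without *Alb-Cre*- replicate 3 and -0.80 without *Alb-Cre*- replicate 1. In *Alb-Cre*- replicate 3, *Myh11*, *Cnn1* and *Myl9*, which encode smooth muscle contractile proteins, were also at their highest. They were at 0.820, 0.360 and 1.97 TPM there, against 0.197 to 0.328, 0.00598 to 0.197 and 0.757 to 1.32 TPM in the other 5 mice. *Tagln*, another of these genes, was at 7.31 TPM there and at 9.29 TPM in *Alb-Cre*- replicate 2. Other smooth muscle genes went both ways in this mouse. *Lmod1* was at its highest (0.275 TPM), while *Mustn1* (3.03 TPM, against 4.12 to 7.55 TPM) and *Des* were at their lowest. *Smtn* was at 0.961 TPM, within the range of the other mice. A list of 11 vascular smooth muscle genes, of which 8 passed the minimum mean, includes *Acta2* and *Des*. Its summed level was 10.6 to 19.7 TPM in *Alb-Cre*+ mice and 15.7 to 21.0 TPM in controls. *Alb-Cre*- replicate 3 had the lowest sum of the controls. The median over its tested genes of the deviation of log2(TPM + 0.1) from the gene mean was instead highest in that mouse. This median was 0.50 in *Alb-Cre*- replicate 3 and -0.43 to 0.26 in the other 5 mice. The part of this list in the *Acta2* difference was not tested.

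*Timp1* encodes an inhibitor of matrix metalloproteinases that is induced in fibrosis (chrX:20870166-20874735, plus strand). It was at 0.0805, 0.496 and 0.0983 TPM in *Alb-Cre*+ mice and at 0.253 and 0.332 TPM in control replicates 1 and 2, and was listed at 0 in *Alb-Cre*- replicate 3. These values were near the pseudocount of 0.1 TPM, and the direction turned with the mouse left out (log2 fold change 0.16 ± 0.71 SE, but -0.49 without *Alb-Cre*- replicate 3, -0.39 without *Alb-Cre*+ replicate 2 and 0.56 without *Alb-Cre*- replicate 2). *Timp1* overlaps *Syn1* on the opposite strand, and whether reads were counted by strand is not given in the sources used here; *Syn1* was at 0.0512 to 0.257 TPM. *Lrat*, *Reln* and *Des* also overlap annotated antisense genes.

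**Figure D2:**
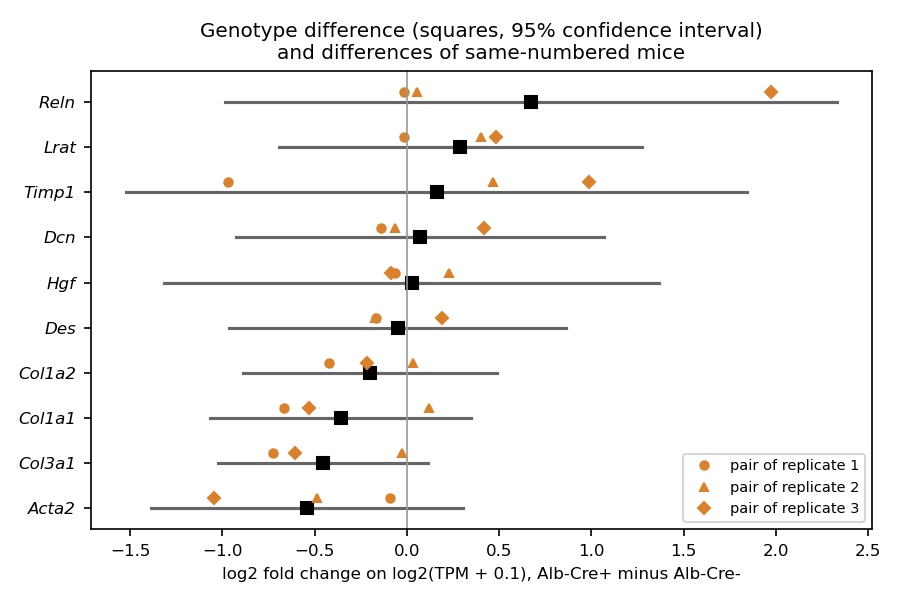
Log2 fold change of each gene between *Alb-Cre*+ and *Alb-Cre*- mice (black squares; lines are 95% confidence intervals, limma, n = 3 per genotype), with the difference of each pair of same-numbered mice above it in orange. All 10 intervals include 0, and the 3 pairs of *Reln* run from -0.016 to 1.98 and those of *Col3a1* from -0.73 to -0.027.

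*Reln* was the member with the smallest share of its TPM on coding transcripts. The 2 full-length protein-coding transcripts, Reln-207 (11699 bases, 65 exons, 3461 amino acids) and Reln-201 (10885 bases, 64 exons, 3459 amino acids), held 30.9% of the *Reln* TPM. Reln-205, a processed transcript of 891 bases and 3 exons with no annotated coding sequence, was at 2.24, 3.74 and 2.31 TPM in *Alb-Cre*+ mice and at 2.45 and 4.46 TPM in control replicates 1 and 2, and was listed at 0 in *Alb-Cre*- replicate 3. It made up 43.3% to 54.1% of the gene in the 5 mice that had it. The coding transcripts alone were at 1.69, 3.03 and 1.10 TPM in *Alb-Cre*+ mice and at 1.46, 2.10 and 0.719 TPM in controls, so *Alb-Cre*- replicate 3 was again the lowest, though less far from the others. Unlike the gene value, these transcripts were higher in the *Alb-Cre*+ mouse of each same-numbered pair. The genotypes overlapped, and the difference in coding transcripts was not tested. With Reln-205 alone in place of the gene, the log2 fold change was 1.40.

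**Figure D3:**
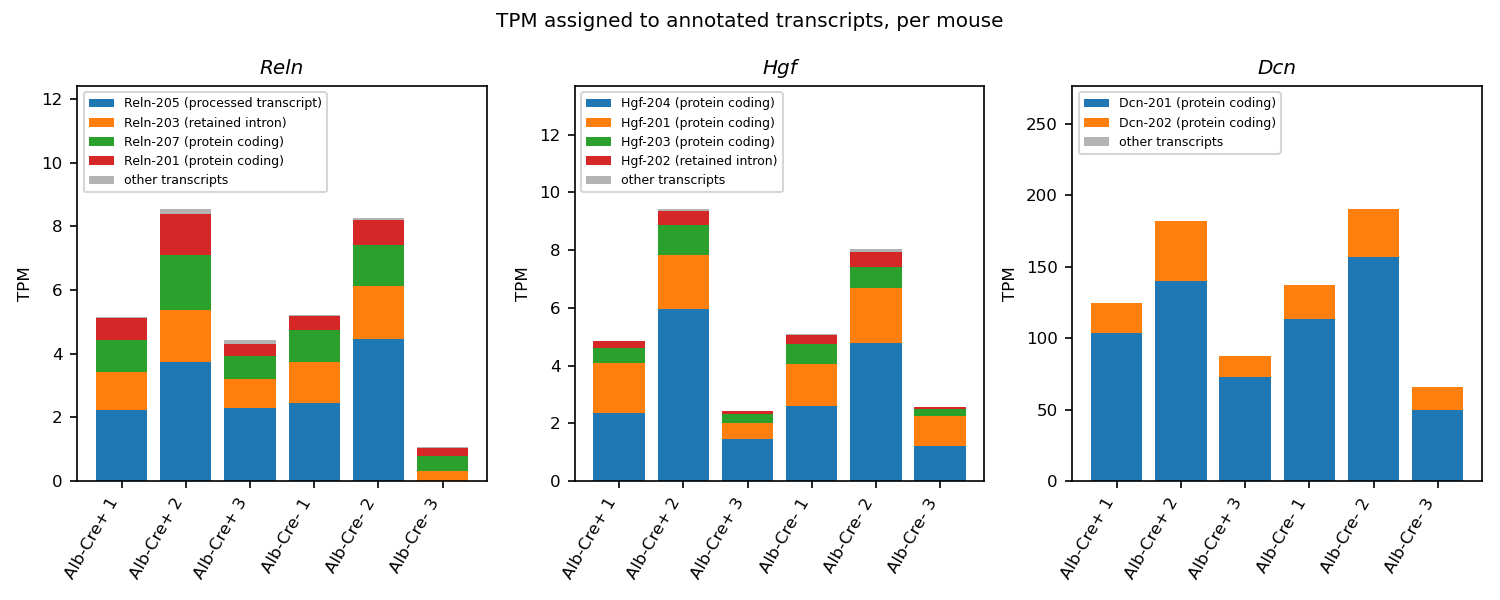
TPM assigned to the annotated transcripts of *Reln*, *Hgf* and *Dcn*, stacked per mouse, with the annotated class of each transcript in the key. Reln-205 is present in 5 mice and listed at 0 in *Alb-Cre*- replicate 3, whereas *Dcn* is held almost wholly by the coding transcripts Dcn-201 and Dcn-202 in all 6 mice.

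*Hgf* was 93.8% protein coding. Hgf-204 (3468 bases) and Hgf-201 (2642 bases), which both encode 728 amino acids, were at 1.21 to 5.97 TPM and 0.538 to 1.91 TPM. *Dcn* was carried by Dcn-201 and Dcn-202, both of 1758 bases with 354 amino acids, at 49.6 to 157 and 15.2 to 42.1 TPM. *Lrat*, *Col1a1*, *Col3a1*, *Acta2* and *Timp1* were wholly assigned to coding transcripts, and *Col1a2* and *Des* to 99.2% and 97.4%.

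Over the 6 mice the 10 genes fell into different patterns, which were compared as log2 values centred on the mean of each gene, by the root mean square difference between 2 profiles. Among the pairs of members, *Dcn* and *Des* were the closest (0.16), followed by *Col1a1* and *Col3a1* (0.18), *Col1a2* and *Des* (0.20) and *Lrat* and *Des* (0.23), while *Reln* and *Acta2* were the farthest apart (1.35). *Alb-Cre*- replicate 3 was the lowest mouse for *Lrat*, *Reln*, *Dcn*, *Des* and *Timp1* (5 of 10, beside 21.2% of all genes tested). In the same mouse *Acta2* was the highest of 6 mice, and *Col1a1* and *Col3a1* were above their means. Of the 25 quiescent stellate cell genes, 17 were lowest in this mouse (68%), a count that includes the members *Lrat*, *Reln*, *Dcn* and *Des*. Also among the 17 were *Ecm1*, at 40.8 TPM against 60.6 to 109 TPM in the others, and *Colec11*, at 19.8 TPM against 22.3 to 45.2 TPM.

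Lists of other cell types also deviated in this mouse, but not all were lowest there. The median deviation of the liver endothelium list was -0.43 in *Alb-Cre*- replicate 3 and -0.63 in *Alb-Cre*+ replicate 3, and that of the Kupffer cell list was -0.53 and -0.82. *Alb-Cre*+ replicate 3 was thus the lowest mouse for both. In *Alb-Cre*- replicate 3, 4 of 12 endothelial and 0 of 11 Kupffer cell genes were lowest, beside 21.2% of all genes tested. The median of the lymphocyte list was -0.68 and that of the cholangiocyte list was -0.45 in *Alb-Cre*- replicate 3, the lowest of the 6 mice for both. Of their genes, 5 of 8 and 4 of 7 were lowest there. The hepatocyte list stood at 0.20 and the erythroid list at 1.04, the highest for both. Their part in the low stellate cell values was not tested. In bulk liver, fewer stellate cells and less RNA per stellate cell cannot be told apart.

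**Figure D4:**
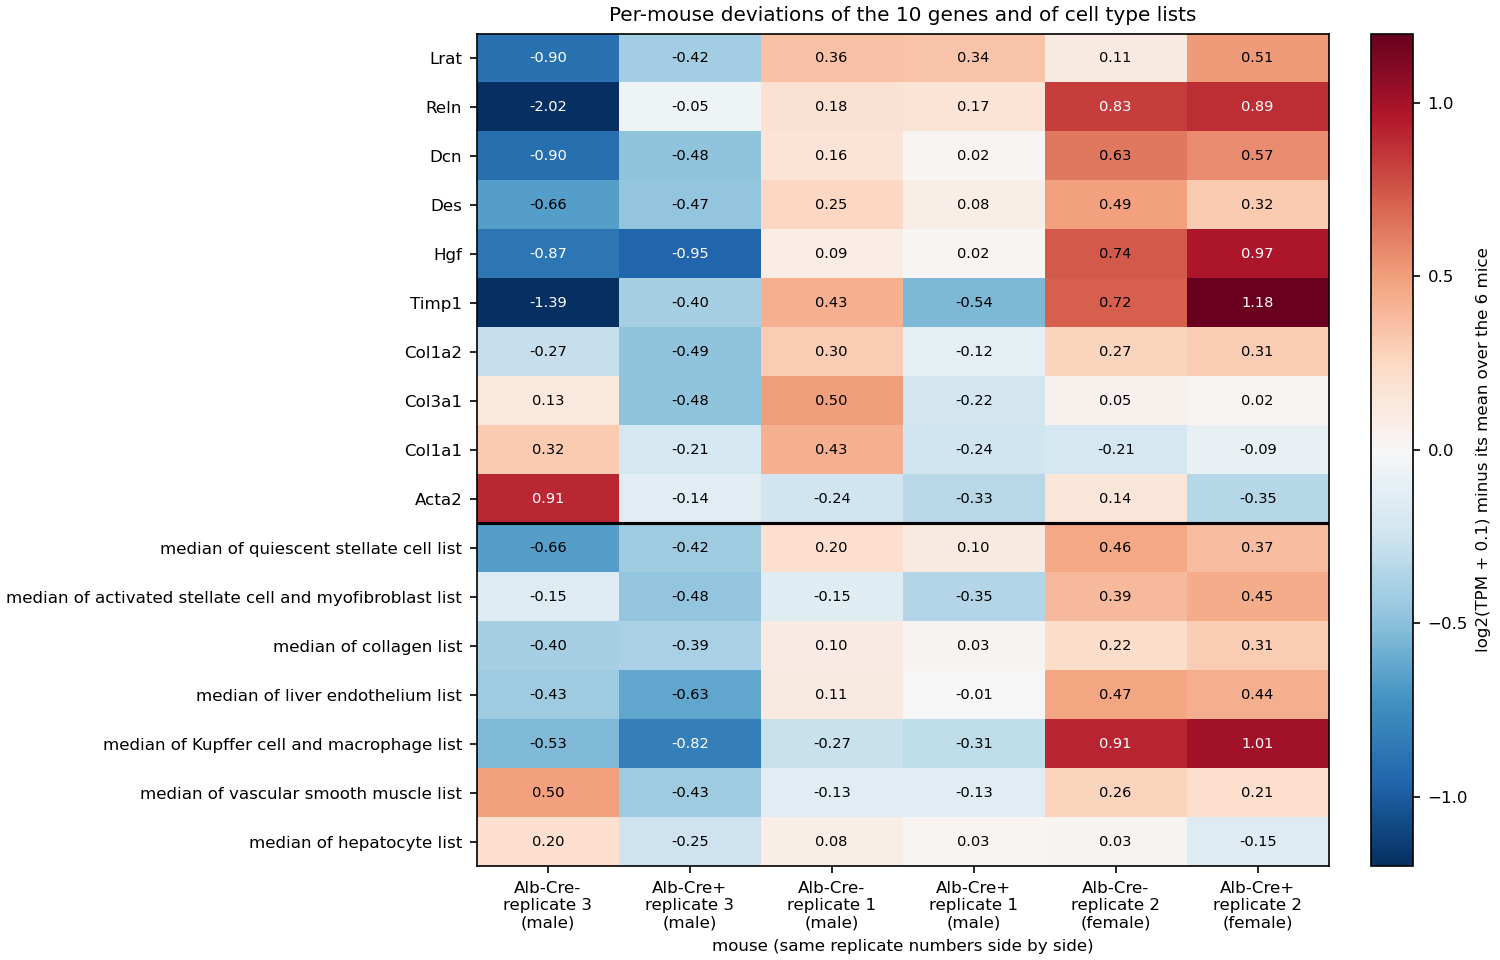
Deviation of log2(TPM + 0.1) from its mean over the 6 mice, for the 10 genes (above the line) and as the median over 7 lists of cell type or collagen genes (below it); red is above and blue below the mean, and same-numbered mice are side by side. *Lrat*, *Reln*, *Dcn*, *Des* and *Timp1* are lowest in *Alb-Cre*- replicate 3 (-0.66 to -2.02), where *Acta2* is highest (0.91).

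Both female mice were above all 4 male mice for *Reln*, *Dcn*, *Des*, *Timp1* and *Hgf* (5 of 10, beside 36.6% of all genes), and no member was lower in both females (0 of 10, beside 5% of genes). *Hgf* was at 9.44 and 8.04 TPM in the females and at 2.43 to 5.09 TPM in the males, and *Dcn* was at 182 and 191 TPM against 65.7 to 137 TPM. In the fit with genotype and sex, the female minus male difference was 1.28 ± 0.36 SE for *Hgf* (unadjusted p = 0.0109, adjusted p = 0.0825), 0.90 ± 0.30 for *Dcn* (adjusted p = 0.114) and 1.43 ± 0.53 for *Timp1* (adjusted p = 0.142). These 3 genes were higher in females at an unadjusted p under 0.05, as were 25.6% of all genes, and 3.11% of genes were lower. No member was past an adjusted p of 0.01, as 0.514% of all genes were. The difference was 1.29 ± 0.58 for *Reln*, 0.60 ± 0.33 for *Des*, 0.46 ± 0.40 for *Lrat* and 0.43 ± 0.25 for *Col1a2*, and it was close to 0 or negative for *Col3a1* (0.055), *Acta2* (-0.15) and *Col1a1* (-0.22).

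The median of all genes was itself 0.26 higher in the females, and the median-of-ratios scaling brought it to -0.011. With that scaling the differences were 1.00 for *Hgf*, 1.24 for *Timp1*, 1.01 for *Reln*, 0.62 for *Dcn*, 0.33 for *Des* and 0.19 for *Lrat*, and that of *Col3a1* turned to -0.22. Without *Alb-Cre*- replicate 3 the unscaled differences were 1.10 for *Hgf*, 1.07 for *Timp1*, 0.75 for *Reln* and 0.66 for *Dcn*, and that of *Acta2* turned to 0.099. The small differences also turned with other mice, to -0.27 for *Col3a1* without *Alb-Cre*+ replicate 2, to -0.046 for *Col3a1* without *Alb-Cre*+ replicate 3 and to 0.14 for *Col1a1* without *Alb-Cre*- replicate 2. No member passed an adjusted p of 0.01 in these fits. Kupffer cell and macrophage genes moved the same way, with 11 of 11 higher in both females than in any male and a summed level of 869 and 922 TPM against 255 to 373 TPM in the males. Of the endothelial genes 10 of 12 did so (275 and 301 TPM summed, against 133 to 217 TPM), and the erythroid genes were lowest in both females in 4 of 5 cases (103 and 131 TPM summed, against 172 to 408 TPM). No gene of these lists was at 0 in all mice, and their part in the stellate cell values was not tested. Each genotype had a single female, replicate 2, so that sex and whatever else the second replicates shared cannot be told apart.

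By the same measure, the genes of at least 1 TPM with the profile closest to each member were looked up over the 6 mice. *Colec11*, a collectin that marks stellate cells, was nearest to *Des* (0.043), before *Gimap1* (0.049) and *Scarf2* (0.053). *Sparc*, a collagen-binding matrix glycoprotein, was nearest to *Col1a2* (0.047), before *Fstl1* (0.058) and *Oat* (0.067). *Cnr2*, a cannabinoid receptor, was nearest to *Lrat* (0.087), and *Eva1b* to *Dcn* (0.055), with *Slco3a1* (0.073) and the endothelial gene *Plvap* (0.086) next. *Evi2a* came nearest to *Hgf* (0.076), *Zfp385b* to *Col1a1* (0.082), *Apon* to *Col3a1* (0.089) and *Tsc22d3*, a gene induced by glucocorticoids, to *Acta2* (0.13). *Reln* and *Timp1* had no close neighbour after the first, *Esrrg* for *Reln* (0.14, then 0.31 for *Bmp4*) and *Abhd11os* for *Timp1* (0.14, then 0.27 for *H2-Q5*).

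The wider gene groups around these members had 0 genes past an adjusted p of 0.01 or 0.05. Without *Alb-Cre*- replicate 3 or without *Alb-Cre*+ replicate 2 the median of each of the 10 lists was negative, where those of all genes were -0.046 and -0.12. Without *Alb-Cre*+ replicate 3 or without *Alb-Cre*- replicate 2 the median of each was positive, where those of all genes were 0.11 and 0.049. In the fits without a replicate 2, that genotype had no female mouse. For each list, the gene with the smallest p in each direction is given, among genes of at least 1 TPM that are not one of the 10 members. Of the 25 quiescent stellate cell genes, 17 were higher and 8 lower in *Alb-Cre*+ mice, with a median log2 fold change of 0.061 that became -0.32 without *Alb-Cre*- replicate 3, -0.13 without *Alb-Cre*+ replicate 2 and -0.042 without *Alb-Cre*+ replicate 1, and 0.28 without *Alb-Cre*+ replicate 3 or *Alb-Cre*- replicate 2. The transcription factor gene *Hand2* (2.85 ± 0.937 against 2.44 ± 0.742 TPM, SD, n = 3 each) and the pericyte gene *Rgs5* (11.9 ± 4.32 against 15.0 ± 2.34 TPM) had log2 fold changes of 0.21 and -0.38, beside *Reln* (0.67) and *Lrat* (0.29), which had smaller p than *Hand2*. Of the 18 activation genes tested, 6 were higher and 12 lower, with a median of -0.11, which was -0.44 without *Alb-Cre*- replicate 3 and -0.50 without *Alb-Cre*+ replicate 2 but 0.053 without *Alb-Cre*+ replicate 3 and 0.013 without *Alb-Cre*- replicate 2. *Tpm2*, a tropomyosin, was higher in *Alb-Cre*+ mice in all 3 pairs (5.26 ± 2.94 against 2.79 ± 1.05 TPM, log2 fold change 0.82 ± 0.42 SE, unadjusted p = 0.0931), and *Myl9*, a myosin light chain, was lower in all 3 (0.838 ± 0.105 against 1.46 ± 0.458 TPM, -0.70 ± 0.31 SE, unadjusted p = 0.0555).

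In the lists of matrix genes, higher and lower values were both common. Of 19 collagen genes, 12 were higher and 7 lower (median 0.057), *Col1a1*, *Col1a2* and *Col3a1* being among the 7. The other fibrillar collagen genes of the list, chosen after their values were seen, lay on both sides. *Col27a1* was at 0.420, 0.403 and 0.491 TPM in *Alb-Cre*+ mice and at 0.313, 0.240 and 0.157 TPM in controls, without overlap, as for 2.18% of all genes (log2 fold change 0.70 ± 0.33 SE, unadjusted p = 0.0677, adjusted p = 1.00). *Col5a1* and *Col5a3* had log2 fold changes of 0.057 and 0.12, and *Col5a2* one of -0.45. *Col18a1*, the collagen that gives rise to endostatin and that hepatocytes make, was at 192 ± 16.9 TPM in *Alb-Cre*+ mice and 165 ± 33.6 TPM in controls (log2 fold change 0.23 ± 0.17 SE), and *Col6a1* was at -0.019 ± 0.28 SE. Of 24 genes for collagen processing and crosslinking, 12 were higher and 12 lower, among them the prolyl isomerase gene *Ppib* (0.13) and the procollagen protease enhancer gene *Pcolce* (-0.34). Of 31 proteoglycan and matrix glycoprotein genes, 17 were higher and 14 lower, with the basement membrane proteoglycan gene *Hspg2* at 0.63 ± 0.40 SE and the elastic fibre gene *Fbln5* at -0.37 ± 0.26 SE. Of 23 matrix proteases and inhibitors, 11 were higher and 12 lower, with the membrane metalloproteinase gene *Mmp15* at 0.65 ± 0.42 SE and *Timp3* at -0.52 ± 0.31 SE.

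**Figure D5:**
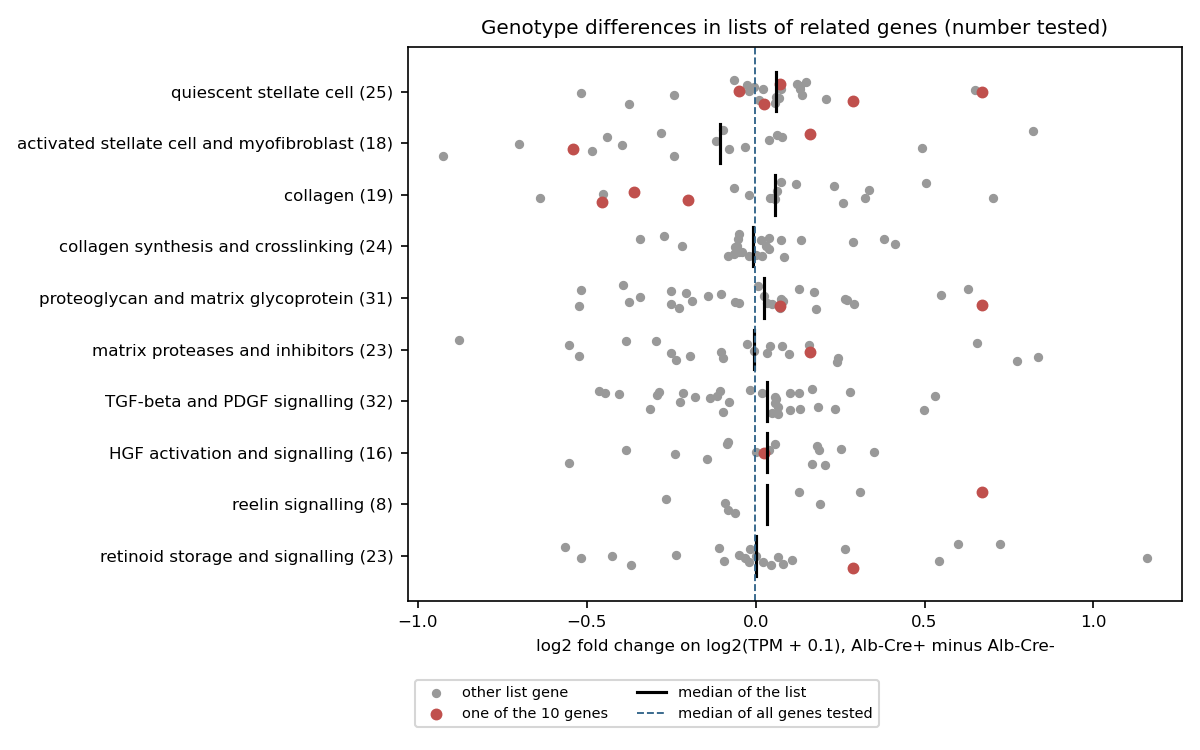
Log2 fold change between *Alb-Cre*+ and *Alb-Cre*- mice of each tested gene in 10 lists around the members (the number tested is in brackets), with the 10 genes in red, the median of each list as a black bar and that of all genes tested as a dashed line. List medians lie between -0.11 and 0.061, and no gene passes an adjusted p of 0.01.

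The signalling lists also held genes on both sides. Of 32 TGF-beta and PDGF genes, the main fibrogenic pathways of stellate cells, 17 were higher and 15 lower (median 0.033), with the receptor gene *Tgfbr2* at 0.50 ± 0.36 SE and the latent TGF-beta binding protein gene *Ltbp4* at -0.29 ± 0.21 SE. Of 16 genes for HGF activation and signalling, 10 were higher and 6 lower (median 0.033). *Spint2*, an inhibitor of the proteases that activate HGF, was at 83.3 ± 3.09 TPM in *Alb-Cre*+ mice and 73.6 ± 10.5 TPM in controls, and *Mst1*, the HGF-like protein gene, was at 68.0 ± 6.03 and 71.8 ± 3.70 TPM. Of 8 reelin pathway genes, 4 were higher and 4 lower, with the receptor gene *Vldlr* at 0.19 ± 0.81 SE and the kinase gene *Fyn* at -0.27 ± 0.48 SE.

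Of 23 genes for retinoid storage and signalling, 12 were higher and 11 lower (median 0.0018). *Aldh1a1*, which oxidises retinaldehyde and is abundant in hepatocytes, was at 793 ± 131 TPM in *Alb-Cre*+ mice and 491 ± 153 TPM in controls (SD, n = 3 each; log2 fold change 0.72 ± 0.25 SE, unadjusted p = 0.0212, adjusted p = 1.00). *Scarb1*, a lipoprotein receptor that also takes up carotenoids, was at 79.2 ± 4.96 and 107 ± 12.9 TPM (-0.42 ± 0.13 SE, unadjusted p = 0.0134, adjusted p = 1.00). Both kept their direction in all 3 pairs, and neither passed the test across all genes. Markers of other cells that make matrix were also measured: 10 portal fibroblast genes were tested, 4 higher and 6 lower, with a summed level of 15.0 to 17.7 TPM in *Alb-Cre*+ mice and 14.4 to 16.3 TPM in controls, and of 4 mesothelial genes tested 2 were higher and 2 lower.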

How the data were processed

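Liver RNA of 6 mice was analysed, 3 per genotype. The authors deposited TPM per mouse and annotated transcript (116748 transcripts) in a table labelled as Salmon output. The methods and the submitters' processing notes name STAR, RSEM and the GRCm38 build, with no versions for the tools. The authors also deposited the log2 fold changes, p-values and mean counts of their own DESeq2 comparison, none of which was used. Rows with no gene symbol (163 transcripts, 0.0515% to 0.0887% of TPM) were left out. TPM hold no read numbers, so depth is unknown.

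The TPM of all transcripts of a gene symbol were added up. The 14189 genes that averaged 0.1 TPM or more were tested for genotype alone with limma 3.58.1 (R 4.3.3, variance trend) on log2(TPM + 0.1), a scale that understates changes of low genes. Benjamini-Hochberg adjustment ran over all genes tested, 0.01 was the threshold, and the procedure was tested on simulated data. P-values measure the spread between these mice. Same-numbered mice deviated together (Pearson's r of their deviations from the group means over genes 0.37, 0.59 and 0.37 for numbers 1, 2 and 3), a pairing that comes from the data and the replicate labels. No gene passed the threshold with or without the replicate number as a block, so the calls cannot show whether the pairing matters.

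The members and lists were chosen with earlier results of these data known. Genes named beside the members were *Surf4*, cell type markers, the gene of at least 1 TPM, other than a member, with the smallest p in each direction of each of 10 lists, and the 3 genes with the nearest profile to each member. Alternatives were a pseudocount of 1 TPM, a minimum mean of 1 TPM or none, median-of-ratios scaling, no variance trend, the replicate block, sex as a covariate, male mice only, the most abundant transcript alone, an adjusted p of 0.05, and leaving out each mouse. The alternatives for the difference between the sexes were chosen after seeing the data. Leaving out a replicate 2 left its genotype with no female mouse, so the groups of those fits differed in sex as well as genotype. Transcripts were read from GENCODE M21 and promoters from RefSeq on GRCm38.p6, where 8 of the 10 genes matched.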

Additional observations from a re-analysis of the deposited data

How the results depend on the processing

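No member passed an adjusted p of 0.01 under any alternative run, and the count of members past the threshold was 0 in each. In the main fit the lowest adjusted p of any gene was 0.456, and *Surf4* itself did not pass. These counts of 0 therefore cannot show that the members are unchanged. With the replicate block, 0 genes and 0 members passed an adjusted p of 0.01, the lowest adjusted p was 0.0580, and genes at an unadjusted p under 0.05 numbered 666 (2.28% higher and 2.42% lower) against 250 without it. No call differed between the paired and unpaired fits, because no gene passed in either. Over all genes, the count past the threshold was 0 throughout, except when leaving out a mouse, where it ranged from 0 to 1. The 1 gene, *Gm10240*, named after its values were seen, was called without *Alb-Cre*+ replicate 1 (adjusted p = 3.09e-04) and was at 0, 159 and 134 TPM in *Alb-Cre*+ replicates 1 to 3 and listed at 0 in all controls. In male mice alone the log2 fold change turned to 0.011 for *Des* and -0.075 for *Hgf*. Leaving out each mouse gave -0.088 to 0.57 for *Lrat*, -0.17 to 1.26 for *Reln*, -0.36 to 0.41 for *Dcn*, -0.39 to 0.18 for *Des*, -0.49 to 0.56 for *Timp1* and -0.45 to 0.51 for *Hgf*, whereas *Col1a1* (-0.55 to -0.23), *Col1a2* (-0.40 to -0.0065), *Col3a1* (-0.58 to -0.32) and *Acta2* (-0.80 to -0.22) kept their sign. The median of all genes was -0.12 without *Alb-Cre*+ replicate 2 and 0.11 without *Alb-Cre*+ replicate 3. With a minimum mean of 1 TPM, *Col1a1*, *Acta2* and *Timp1* were not tested. Of the values recomputed under alternatives, 301 kept their direction and side of the threshold or moved by less than the spread, 28 moved by more and 13 changed direction.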
